A study of Drosophila melanogaster with 4 samples.

Results

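Intronic summits are the peaks of a Distal-less ChIP-seq experiment whose highest point lay inside an intron of a Drosophila gene. They made up 508 of the 5203 nuclear summits, or 9.76%, in the conservative peak list that the authors derived from all samples of the series. A summit was called intronic when it fell in no promoter (from 500 bp upstream to 100 bp downstream of a protein-coding transcription start site, TSS), no untranslated region, no coding sequence and no other exon, but inside an annotated gene. By the same rule 3900 summits were in promoters and 249 were intergenic. The class was set by position alone, with no measured value.

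The samples were 4 biological replicates of whole Drosophila melanogaster embryos, collected from 0 to 24 h of development, all from flies with an insertion that makes a Dll protein fused to eGFP. All 4 samples carried the fusion, so they form 1 group, and no untagged embryos were analysed here. Chromatin was sonicated to 200 to 800 bp and precipitated with an antibody against GFP. Whole embryos mix all tissues, so a peak cannot be assigned to the cells that express Dll, and fewer bound cells cannot be told apart from weaker binding per cell. Each replicate had its own thresholded peak list, of 3609, 3610, 2523 and 2884 nuclear peaks in replicates 1 to 4. The conservative list derives from the same 4 samples, so a peak found again in a replicate's own list is support for it and not an independent replication. Peak lists carry no read counts, and the depth behind each peak is unknown.

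Distal-less is a homeodomain transcription factor that specifies the distal parts of legs, antennae and other ventral appendages. Homeodomain proteins contact short AT-rich words such as TAATTA, which are frequent in any intron. Introns of fly developmental genes, and first introns above all, hold many enhancers as well as alternative promoters. GAGA factor binds runs of GA and helps to open chromatin. DREF binds TATCGATA, mostly at promoters of genes used in many cell types.

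Of the short words searched at intronic summits, those of DREF and GAGA factor were the ones furthest above the flanking sequence in the own lists, by the mean difference in percentage points, although 442 of the 508 conservative summits held neither. The DREF word is more frequent still at promoter summits. Shown first, with TATCGATA in capitals, are 30 bases around this word at 6 of the strongest intronic summits that held it within 50 bp, had a peak in all 4 replicate lists and overlapped no promoter peak. All sequences were read 5′ to 3′ from the release 6 reference (dm6 coordinates).
CG42709, chr3L:12794690-12794719, plus strand: agttatcgctcTATCGATAgttggcgcaac
for, chr2L:3648353-3648382, plus strand: gaaataaaataTATCGATAacggaaagcgg
Tudor-SN, chr3L:262918-262947, plus strand: accaaacacacTATCGATAtatgtaatatt
woc, chr3R:27263484-27263513, plus strand: tagggctcgtcTATCGATAacattcgcggc
Ncoa6, chr2L:5325025-5325054, plus strand: cactattttgtTATCGATAtctatgcagcg
bif, chrX:11681583-11681612, plus strand: cgatattcgctTATCGATAgctcacagagt

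The GAGA word was found mostly at summits with less support, so the next 5 sequences are among the strongest with a peak in at least 2 replicate lists and no overlapping promoter peak. They are a selection: summits with the word in Acsl (signal 338 and 274, 4 lists each) and Mef2 (305, 3 lists) are among those not printed. GAGAGAG is in capitals.
PyK, chr3R:22368405-22368434, plus strand: gatgagcgaaaGAGAGAGcggaagataaaa
Delta, chr3R:19322065-19322094, plus strand: gcgcagagcgaGAGAGAGctaaagcggtag
Unc-76, chrX:2083836-2083865, minus strand: cagagagcgacaGAGAGAGcgagagcggga
Eip74EF, chr3L:17563781-17563810, minus strand: gagagagagagaGAGAGAGtgaaagagtgc
Prps, chr3L:9692673-9692702, plus strand: agagcaagagaGAGAGAGcgggagaatggg

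Because Dll is a homeodomain protein, a pair of summits with its type of core word follows, TAATTA in capitals, both with a peak in all 4 replicate lists. They are a selection (signal 513 and 284): the summit with the word in 14-3-3zeta (546, 4 lists) is among those not printed. After the pair come 3 of the strongest intronic summits whose 101 bp window held none of the 21 words searched, all in lower case and centred on the summit.
Pp2C1, chrX:4684749-4684778, plus strand: cacacggttgcaTAATTAcctagagatggg
bab1, chr3L:1083497-1083526, plus strand: caaaaggggaaaTAATTAtatatataaata
org-1, chrX:8452349-8452378, plus strand: tggttaaagtgctggttaaagtggtggtta
Pgd, chrX:2146241-2146270, plus strand: gagttttgtctaatcacatagttgtggtaa
msn, chr3L:2580003-2580032, plus strand: tgacacgggcgtgacacgaaaaaacgagaa

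Intronic peaks were found again in the replicates' own lists far less often than promoter peaks. Of the 508 intronic peaks, 107 (21.1%) overlapped a peak by at least 1 bp in all 4 own lists, 36 in 3 lists, 58 in 2, 109 in 1 and 198 (39.0%) in none. Over all 5203 nuclear peaks 47.7% were seen in all 4 own lists and 16.6% in none, and over promoter peaks the shares were 54.7% and 11.6%. Intergenic peaks lay nearer to the intronic ones, with 27.7% in all 4 lists and 26.1% in none. Of the other classes, the share in all 4 lists went from 7.46% in other exons to 35.4% in coding sequence.

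**Figure D1:**
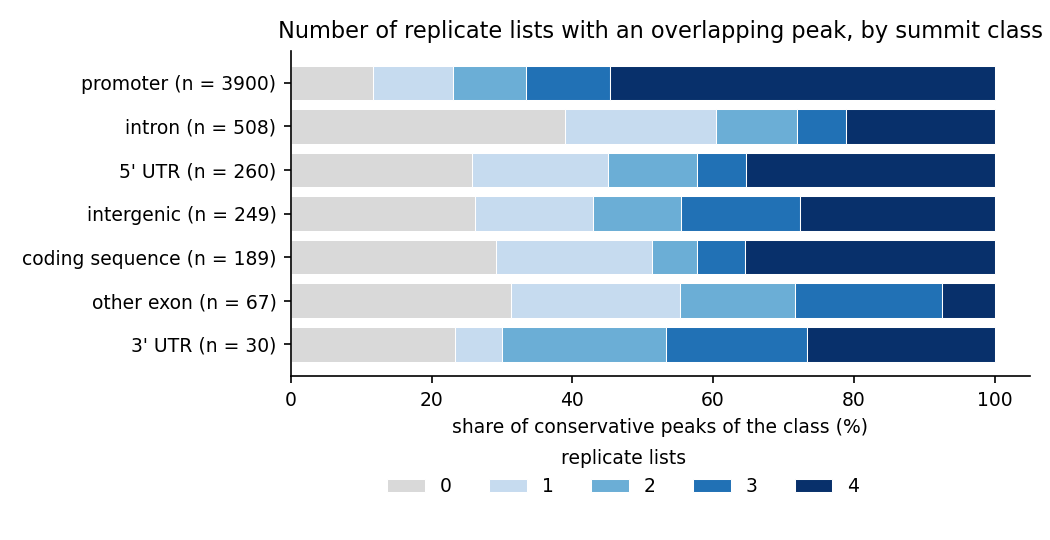
Share of conservative peaks in each summit class (percent, horizontal axis) by the number of replicate lists with an overlapping peak, from 0 (grey) to 4 (dark blue), with the number of peaks of the class beside its name. The intronic bar has the largest grey part of the 7 classes, 39.0%, against 11.6% for promoters.

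The gap was of similar size in each replicate. Own lists of replicates 1 to 4 held a peak over 226, 228, 150 and 157 of the intronic peaks, or 44.5%, 44.9%, 29.5% and 30.9%. The same lists covered 77.2%, 79.4%, 62.3% and 67.7% of the promoter peaks. Replicates 3 and 4, whose lists were shorter, were lower in both classes. The difference, intronic minus promoter, averaged -34.2 percentage points ± 1.90 (SD, n = 4) and was negative in 4 of 4 replicates (exact sign-flip permutation test, two-sided, p = 0.13, the smallest that 4 replicates allow, so the test cannot reach 0.05). When only the 50% of conservative peaks with the highest signal were kept, the difference shrank to -8.30 percentage points.

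Overlap of intervals was a lenient measure of support. When a summit of the own list had to lie within 100 bp of the intronic summit, 50 of 508 (9.84%) were found in all 4 lists and 266 (52.4%) in none, against 33.4% of all nuclear peaks in all 4. The stricter count left 41.2% of promoter summits in all 4 lists. Introns were not the lowest class by it: 3.17% of coding-sequence summits were in all 4 lists and 52.9% in none. The share in all 4 was 4.62% in 5′ untranslated regions, 7.46% in other exons, 16.7% in 3′ untranslated regions and 20.9% for intergenic summits.

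The replicates' own intronic peaks, which make no use of the conservative list, showed the same order. They numbered 234, 216, 128 and 152 in replicates 1 to 4, which was 6.48%, 5.98%, 5.07% and 5.27% of the nuclear peaks of each list (5.70% ± 0.651, SD, n = 4). All 4 shares were below the 9.76% of the conservative list. Of these own intronic peaks 34.6%, 34.7%, 53.1% and 55.9% overlapped a peak in all 3 other replicates. Of the own promoter peaks 67.4%, 64.4%, 85.0% and 78.0% did. In each replicate the intronic share was the lower of the pair.

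Intronic peaks also ranked low. The authors' peak signal served to order the peaks of one list, with 0 percent at the top. In the conservative list the median intronic peak stood at 73.2% and the median promoter peak at 40.8%. Each other class outside promoters also ranked below them. Medians were 80.8% in coding sequence, 70.6% in 5′ and 62.6% in 3′ untranslated regions, 60.8% in other exons and 60.6% for intergenic peaks. In the own lists of replicates 1 to 4 the median intronic rank was 74.5%, 74.5%, 75% and 76%, and the median promoter rank 43.7%, 43.7%, 45% and 44.3%. The difference averaged 30.8 points ± 0.691 (SD, n = 4) and had the same sign in 4 of 4 replicates (exact sign-flip permutation test, two-sided, p = 0.13, again the smallest possible). Only 3, 4, 3 and 2 intronic peaks per replicate reached the top 10% of a list.

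Support was highest among the strongest peaks and went with the width of the peak. Of the 50 intronic peaks with a deposited signal above 300, 47 were seen in all 4 own lists. The count was 19 of 71 between 200 and 300, 27 of 266 (10.2%) between 100 and 200 and 14 of 121 (11.6%) up to 100, so the lowest bin was not below the next. Most intronic peaks, 415 of 508 (81.7%), were exactly 596 bp wide, the most frequent width of the list. Only 27 of these were seen in all 4 own lists and 197 in none. Of the 84 narrower intronic peaks, 71 (84.5%) were seen in all 4 lists and 1 in none, and all 9 wider ones were in all 4. Promoter peaks were 596 bp wide in 40.4% of cases, and within each width the classes differed little: 83.5% of narrower promoter peaks and 9.0% of those of 596 bp were in all 4 lists, against 6.51% of intronic peaks of 596 bp. The own lists had other most frequent widths (520, 524, 404 and 480 bp), which 78.2%, 77.8%, 86.7% and 80.3% of intronic and 41.1%, 41.9%, 59.2% and 50.5% of promoter peaks had. No source used here says how peak width was set, and its part in the difference between classes was not tested.

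**Figure D2:**
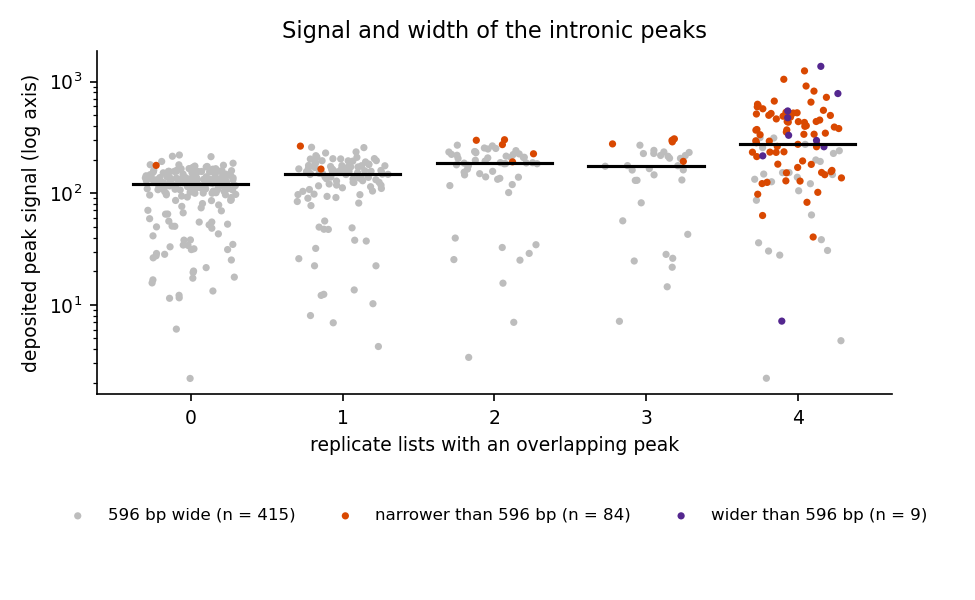
Deposited signal of the 508 intronic peaks (log axis) by the number of replicate lists with an overlapping peak, 1 point per peak, coloured by width, with black bars at the medians. Narrow peaks (orange) gather at 4 lists, where the median signal was 274, against 121 at no list.

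The strongest intronic peaks lay in genes of many kinds. The 20 strongest with a peak in all 4 own lists also had an own-list summit within 100 bp in all 4. For a named peak, the rank in a replicate is that of the highest-ranked own-list peak, of any class, that overlapped it. None of the 20 had the frequent width of 596 bp, none overlapped a promoter peak, and 13 were in a first intron. Of the 20 summits 8 were within 1000 bp of a coding TSS. Their hosts include regulators of signalling, metabolism and the cytoskeleton rather than a single pathway, and 10 of the 20 hosts also had a summit at a promoter of their own.

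The highest intronic peak of all was in the first intron of Sik3, which encodes a salt-inducible kinase, 208 bp downstream of a TSS. Sik3 had no summit in the promoter class, and the peak, 605 bp wide, also covered this TSS. Its rank from the top was 4.88%, 6.23%, 2.34% and 7.56% in replicates 1 to 4. The next, in the first intron of Asator, a kinase of the tau-tubulin kinase family, ranked at 4.63%, 6.81%, 5.23% and 8.70%. These were the 2 peaks of the 20 in the top 10% of every own list. The peak of zf30C, a zinc finger gene, followed at 8.48%, 8.98%, 8.44% and 12.3%.

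The org-1 peak was the least even of the leading ones. This gene encodes a T-box factor that acts in muscle founder cells, and its peak ranked at 35.9%, 5.10%, 19.2% and 12.6% in replicates 1 to 4. Replicate 1 thus placed it further down the list, though above the middle, and replicate 2 near the top. It stood 2505 bp downstream of the nearest coding TSS.

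Genes of basic metabolism and RNA handling were among the leading hosts. The peak of Pgd, the 6-phosphogluconate dehydrogenase of the pentose phosphate pathway, ranked at 18.4%, 21.7%, 16.5% and 24.4%. The summit in CG42709, which holds the first TATCGATA printed above, was at the same time in an intron of Atg1, the kinase that starts autophagy, and ranked at 17.4%, 15.9%, 18.3% and 20.7%. The peak of Tudor-SN, a nuclease of the RNA-induced silencing complex with the same word, ranked at 23.6%, 28.6%, 32.1% and 21.7%. The ranks of the Pgd peak overlapped those of both others, and the Tudor-SN peak stood lower than both in replicates 1 to 3.

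Developmental and signalling genes supplied others of the 20. A peak in ru, a rhomboid protease that releases EGFR ligands, ranked at 19.1%, 27.3%, 24.7% and 27.0% and lay in an intron of Ptp61F, a tyrosine phosphatase of the JAK/STAT pathway, as well. The peak in for, a cGMP-dependent protein kinase, ranked at 25.2%, 18.1%, 37.9% and 23.5%, and that in msn, a Ste20 kinase upstream of JNK, at 25.5%, 25%, 33.3% and 26.9%. The rest of the 20 were in CG31688, CG17378, sn (the actin bundler fascin), not (a histone H2B deubiquitinase), 14-3-3zeta, Dys (dystrophin), klar (a nuclear envelope protein that positions nuclei), IntS6 (an Integrator subunit), side-V and Pp2C1. Their ranks went from 18.9% for 14-3-3zeta in replicate 3 to 58.9% for Pp2C1 in the same replicate.

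Summits favoured first introns. Of the 508 summits, 328 (64.6%) were in intron 1 of the host transcript with the longest coding sequence, 113 (22.2%) in intron 2, 30 (5.91%) in intron 3 and 37 (7.28%) further on. First introns held 33.1% of the intronic bases of the host genes, so per megabase of host intron there were 163 summits in first introns, 63.8 in intron 2, 39.1 in intron 3 and 24.1 in later ones. Of the 107 summits seen in all 4 own lists 83 (77.6%) were in a first intron, and of the 198 seen in none 118 (59.6%). However, 42 of those 107 overlapped a promoter peak. Without all intronic peaks that overlap one, the first-intron share of the class was 59.3%. The part of this overlap in the difference between the support groups was not tested. In the own lists of replicates 1 to 4 the share of intronic summits in first introns was 65.8%, 58.8%, 65.6% and 64.5% (63.7% ± 3.31, SD, n = 4). Each was above the 31.9% of intronic bases of all protein-coding genes that lie in first introns. The 33.1% is that of conservative-list hosts, and the share for own-list hosts was not computed.

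**Figure D3:**
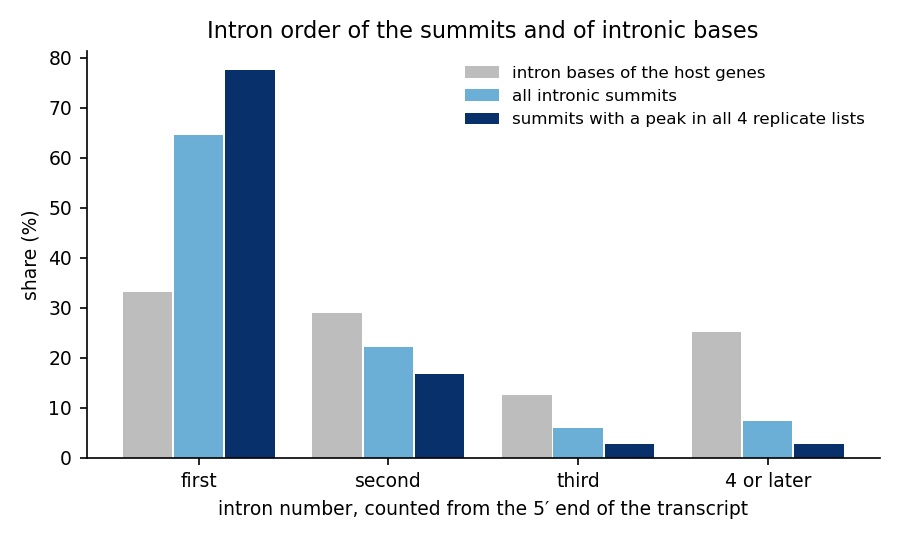
Share (percent) of the intronic bases of the host genes (grey), of all 508 intronic summits (light blue) and of the 107 summits seen in all 4 replicate lists (dark blue) by intron number. First introns hold 33.1%, 64.6% and 77.6% in that order, and introns from the fourth on 25.2%, 7.28% and 2.80%. Of the 107 summits, 42 overlapped a promoter peak.

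The introns that held a summit were long. Their median length was 5605 bp, against 157 bp over all introns of the host genes and 72 bp over the 46038 introns of protein-coding genes. Of the summits 80.3% were in introns over 1000 bp, which hold 89.6% of all intronic bases. Introns over 10000 bp held 38% of the summits and 56.6% of the bases. Summits were thus not more frequent in the longest introns than their share of bases.

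Many summits were close to a start site. The distance to the nearest coding TSS had a median of 1557 bp, with quartiles of 576 and 4532 bp and a maximum of 41355 bp, for a summit in CG43759. Of the summits 196 (38.6%) were within 1000 bp and 121 (23.8%) beyond 5000 bp, and 429 (84.4%) had a TSS of a host gene as the nearest. In the own lists 45.3%, 39.4%, 45.3% and 45.4% of intronic summits were within 1000 bp of a coding TSS. The share of intronic bases at these distances was not computed, so whether summits were nearer than intronic bases in general is unknown.

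Support near start sites went with neighbouring promoter peaks. Of the 107 summits within 500 bp of a TSS, 44 (41.1%) had a peak in all 4 own lists, against 16 of 121 (13.2%) beyond 5000 bp. Of those 107, 64 peaks overlapped a promoter peak. Among the 43 that did not, 5 (11.6%) were in all 4 lists, and in the next distance bins the share without such overlap was 15.6%, 17.6%, 15.7% and 13.2%. Over the whole class 76 intronic peaks overlapped a promoter peak, of which 42 were seen in all 4 own lists by interval and 4 by a summit within 100 bp. The 432 others had 65 (15%) and 46 in turn. Just outside the promoter boundary, 55 intronic summits lay up to 200 bp from a TSS, 30 of them seen in all 4 own lists by interval, and just inside it 864 promoter summits lay up to 100 bp downstream of one.

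Neighbouring intronic summits mostly belonged to overlapping peaks. Of the 508 summits 151 (29.7%) had another within 1000 bp, in 68 pairs and 5 groups of 3, and 145 of them overlapped another intronic peak. Of the 78 neighbouring pairs 49 (62.8%) were 190 to 220 bp apart, the smallest distance was 199 bp, and in these 49 pairs the weaker summit had a median 0.320 of the signal of the stronger. Promoter summits had 611 of 803 neighbouring pairs (76.1%) in the same range. With 1 summit per merged region, 1.10% of intronic summits had another within 1000 bp. Clusters of 3 were in Acsl, Src64B, Su(Tpl), HDAC4 and Sdc.

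The 508 summits fell into 363 protein-coding host genes, 2.6% of the 13968 annotated, and 7 summits were in introns of non-coding genes only. Of the hosts 267 had 1 summit, 69 had 2, 21 had 3 and 6 had 4 or more. Hosts had a median of 8.18 kb of intron, against 0.198 kb over all protein-coding genes, and among genes with at least 10 kb of intron 12.8% were hosts. A peak seen in all 4 own lists was in 91 hosts, 0.651% of protein-coding genes, and 123 hosts had only peaks seen in no own list. Of the hosts 210 (57.9%) also had a summit at a promoter of their own, against 31.1% of all protein-coding genes. Of the genes with at least 10 kb of intron that share was 52.5% for hosts and 31.1% for all. The host count fell to 205 with a promoter of 1000 bp to each side, to 162 for peaks in at least 2 own lists and to 94 for the upper 50% of peaks, and it was 525 in the largest other thresholded list.

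EcR, the nuclear receptor for ecdysone, had the most summits, 9 in 67.0 kb of intron. Only 1 of its places was well supported: a summit beside the tRNA gene tRNA:Asn-GTT-1-1, ranked at 60.6%, 71.9%, 73.8% and 77.8% in replicates 1 to 4, with a weaker summit inside the same own-list peaks. The EcR summits else were seen in 1 own list (2 summits) or in none (5 summits). The nuclear protein gene sbb (scribbler) had 8 summits in a single annotated intron, 5 of them in no own list and none in more than 2 lists.

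The other hosts with most summits had 3 or 4 each, with support that ranged from none to all 4 lists. Acsl, a long-chain acyl-CoA synthetase, had 4 summits in its first intron, 3 of them in all 4 own lists. A pair of these 3 shared the same own-list peaks, and the strongest ranked at 66.9%, 46.4%, 53.6% and 59.7%. Sik3 had 3, of which the leading one described above was in all 4 lists and the others in 2. In wts, the Warts kinase of the Hippo pathway, 3 summits lay in the second intron, and the strongest, which shared its own-list peaks with a weaker one, ranked at 42.7%, 50.4%, 61.3% and 57.7%. In mam, the Notch coactivator mastermind, 1 of 3 summits was in all 4 lists, with ranks of 69.9%, 47.3%, 68.7% and 53.4%. Of the 4 summits each in klar, Hipk (the homeodomain-interacting protein kinase) and Mob2 (a kinase adaptor), 1, none and 1 were in all 4 lists, and that of Mob2 overlapped a promoter peak. CG32264 had 3 summits and none in more than 2 lists.

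**Figure D4:**
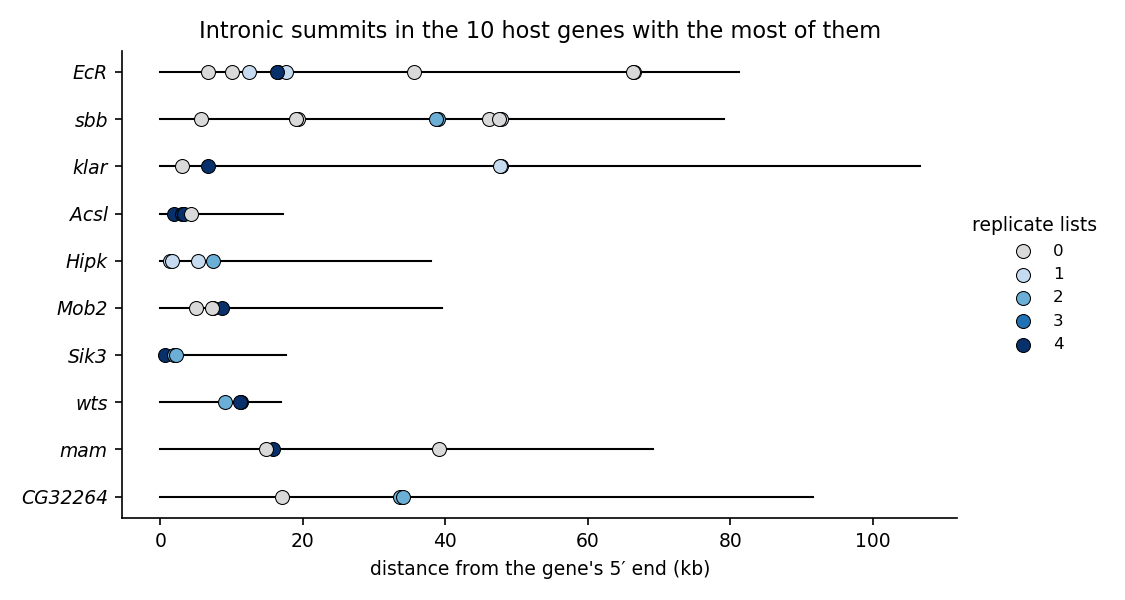
Intronic summits in the 10 host genes with the most of them, plotted by distance from the annotated 5′ end of the gene (kb), with 1 line per gene drawn to its length and 1 point per summit coloured by the number of replicate lists with an overlapping peak. EcR has 9 summits and sbb 8, most of them pale, while Acsl has 3 of 4 in all 4 lists, a pair of them under the same own-list peaks.

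Dll itself held 1 intronic summit, 15028 bp downstream of its nearest TSS in the third intron. It ranked at 76.5% in the conservative list, was 596 bp wide and was seen in none of the 4 own lists. The gene also had a summit at its own promoter.

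Of the 36 matched genes of appendage patterning 2 (5.56%) were hosts, Dll and bab1, against 2.6% of all protein-coding genes. Both are among the 19 of the list with at least 10 kb of intron, and over all genes with that much intron 12.8% were hosts. The gene bab1, which patterns leg segments, had a summit in its first intron, 17539 bp from a TSS, that held TAATTA and was seen in all 4 own lists. Its ranks were 51.5%, 58.0%, 64.5% and 74.6%. A further bab1 summit was seen in replicate 2 alone.

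Among Hox and head selector genes 4 of 21 (19.0%) were hosts, lab, Ubx, cnc and pb, against 2.6% of all protein-coding genes. All 4 are among the 12 of the list with at least 10 kb of intron, and over all genes with that much intron 12.8% were hosts. None of the 4 had a peak in all 4 own lists, which 0.651% of all protein-coding genes host. The Ubx summit, 31373 bp from a TSS and with a GAGAGAG, was seen in replicates 2, 3 and 4 at 68.8%, 82.4% and 78.5%. The lab summit was inside an annotated INE-1 transposable element and was seen in replicate 2 alone, as were those of cnc and pb. The cnc peak overlapped a promoter peak. No gap or pair-rule gene of 22 was a host, though only 1 of them has 10 kb of intron.

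Of the signalling lists, the Notch pathway had the highest share of hosts. There 6 of 21 genes (28.6%) were hosts, and all 6 were among its 8 genes with at least 10 kb of intron. Beside mam they include Delta, the Notch ligand, at 64.9% and 69.8% in replicates 1 and 2 and unseen in the others, N, the receptor itself, seen in the same 2 replicates at 88.0% and 79.3%, and numb, an inhibitor of the pathway, seen in 1 list. The EGFR and FGF list had 5 hosts of 25. Beside ru these include sty (sprouty, an inhibitor of the pathway), whose summit ranked at 46.1%, 59.5%, 67.8% and 70.3%, spi (the ligand Spitz), seen in 2 lists, and bnl (the FGF ligand Branchless), seen in none.

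No host of the Wnt, Dpp or Hedgehog lists had a peak in all 4 own lists. Over all protein-coding genes only 0.651% host such a peak, so its absence from short lists says little about them. The Wnt list had 3 hosts of 24 (12.5%), all among its 11 genes with at least 10 kb of intron: fz2, a receptor, and arr, a co-receptor, each with a peak seen in 3 own lists, and nkd, an inhibitor, with one seen in none. The arr peak overlapped a promoter peak. The Dpp and BMP list had 2 of 23 (8.70%), Dad (an inhibitory Smad) and tkv (a receptor), the first seen in no list and the second in 1. In the Hedgehog list ci, the transcription factor of the pathway, was the only host of 14 (7.14%), with a summit inside an INE-1 element seen in 2 lists.

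Tissue lists gave further supported summits. In the tracheal and salivary list 2 of 17 (11.8%) were hosts, and the summit in trh (trachealess, a selector of tracheal fate) ranked at 31.6%, 37.3%, 42.8% and 37.0%. In the mesoderm and muscle list 2 of 22 (9.09%) were hosts, where Mef2, a muscle differentiation factor, had a peak in 3 own lists and zfh2 in none. Among adhesion and guidance genes 6 of 36 (16.7%) were hosts: kirre, a fusion protein of muscle founder cells, ranked at 42.0%, 45.6%, 57.0% and 53.4%, Dscam1, with a summit inside an INE-1 element, was seen in 3 lists, sdk in 1 and Fas3 in none. Proneural and neural genes had 2 hosts of 24 (8.33%), Rbp9 and brat, neither in more than 1 list. No gene of the ion channel and synapse list (24 genes) was a host, although 19 of them have at least 10 kb of intron.

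Chromatin and general transcription regulators had the most hosts, 10 of 41 (24.4%). The widest peak among them was in the only intron of BEAF-32, an insulator protein, 391 bp from its TSS, and ranked at 24.3%, 25%, 35.7% and 15.8%. This peak was 1778 bp wide and overlapped a promoter peak, so its ranks may be those of own-list peaks with a promoter summit. Of the other 9 hosts Eip74EF and ph-p had a peak in 3 own lists, while Eip75B and kis had one in 1. Eip74EF (an ecdysone-induced ETS factor), Eip75B (an ecdysone-induced nuclear receptor) and EcR were the 3 hosts of 18 (16.7%) in the ecdysone list. Cytoskeleton and polarity genes had 4 of 27 (14.8%), Cdc42, par-1, Rho1 and shot, none in more than 1 list. The host shares of all these gene lists stand beside 2.6% over all protein-coding genes and 12.8% over those with at least 10 kb of intron.

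DREF and GAGA words were above the flank at the intronic summits of all 4 own lists, and homeodomain words were not. Each of 21 words was counted on both strands within 50 bp of a summit and in a flank of the same length 400 bp to the left. TATCGATA, which is its own reverse complement, was within 50 bp of 16 summits (3.15%), in 1 flank (0.197%) and in 0.217% of 514765 windows of 101 bp tiled over all introns. In the own lists of replicates 1 to 4 it was at 6.84%, 4.63%, 5.47% and 4.61% of intronic summits and in 0.427%, 0.463%, 0% and 0.658% of flanks. Every summit share was above every flank share. Promoter summits of the conservative list held it in 14.5%.

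GAGAGAG was more frequent at intronic than at promoter summits. It was at 50 intronic summits (9.84%), in 11 flanks (2.17%) and in 1.41% of intron windows, against 3.03% of promoter summits. The own lists gave 13.7%, 13%, 10.2% and 7.89% at intronic summits and 2.14%, 1.85%, 4.69% and 1.97% in flanks. Own promoter summits held it in 2.08% ± 0.817 (SD, n = 4), and all 4 intronic shares were above that range.

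The DREF and GAGA words differed in the support of the summits that held them. Either was at 66 summits and none held both. TATCGATA was at 8 of the 107 summits seen in all 4 own lists (7.48%), 3 of the 203 seen in 1 to 3 (1.48%) and 5 of the 198 seen in none (2.53%). GAGAGAG was at 4 of those seen in all 4 lists (3.74%), 29 of those seen in 1 to 3 (14.3%) and 17 of those seen in none (8.59%). By distance, GAGAGAG was at 1.87% of summits within 500 bp of a coding TSS and at 8.99% to 15.7% in each bin further away. These are counts in few summits, and the difference between support groups was not tested.

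Of the 21 words 5 were above the flank in all 4 own lists. Beside the DREF and GAGA words these were CGATAT of BEAF-32, the E-box CACGTG and the AP-1 word TGACTCA. Over all intron windows these 3 were in 3.41%, 1.11% and 0.910%. The BEAF-32 word can overlap that of DREF, and 11 of the 16 windows with TATCGATA held it too. TGACTCA was at 1.71%, 2.78%, 2.34% and 3.29% of own intronic summits and in 0.427%, 0%, 0.781% and 0.658% of flanks. These shares rest on few windows: in the conservative list TGACTCA was at 7 summits and in 1 flank, and CACGTG at 10 and in 4. Own lists also share peaks, so the replicates count in part the same places. For each of the 5 the exact sign-flip permutation test gave p = 0.13, the smallest possible and short of 0.05, before any correction for 21 words. The other words searched were GGTCACAC of M1BP, TGACAG of Exd and Hth, CAGGTA of Zelda, the E-box CAGCTG, the GATA factor word AGATAAG, the repeat CACACACA, the CTCF word GGTGGCGC, GGTTCGA of the tRNA B box, the TATA box word TATAAA, the initiator TCAGT, the T-box factor word AGGTGTGA, AACCGGTT of Grainyhead, CTTTGAT of TCF and GCCATT of Pho. None of these 14 was above the flank in all 4 replicates. A match of letters is a description of the window and not a mapped site.

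The homeodomain words were about as frequent at the summit as beside it in the conservative list, and mostly less frequent in the own lists. In the conservative list TAATTA was at 37 summits (7.28%) and in 31 flanks (6.10%), and TAATTG at 38 summits (7.48%) and in 36 flanks (7.09%). In the own lists TAATTA was at 5.13%, 8.33%, 7.81% and 7.24% of intronic summits and in 4.70%, 11.1%, 8.59% and 10.5% of flanks, higher at the summit in 1 of 4 replicates. In the own lists TAATTG was lower at the summit in 4 of 4 replicates, by an average of -3.01 percentage points ± 0.861 (SD, n = 4; exact sign-flip permutation p = 0.13). Over all intron windows these words were in 7.57% and 10.9%. The lower share of AT-rich words stands beside a higher GC content: 43.33%, 44.28%, 43.26% and 43.69% within 150 bp of own intronic summits, against 40.01%, 39.41%, 40.01% and 39.84% in the flanks. Promoter summits differed the other way, with 38.4% ± 0.243 at the summit and 44.5% ± 0.0963 in the flank (SD, n = 4). The part of base composition in the word counts was not tested.

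**Figure D5:**
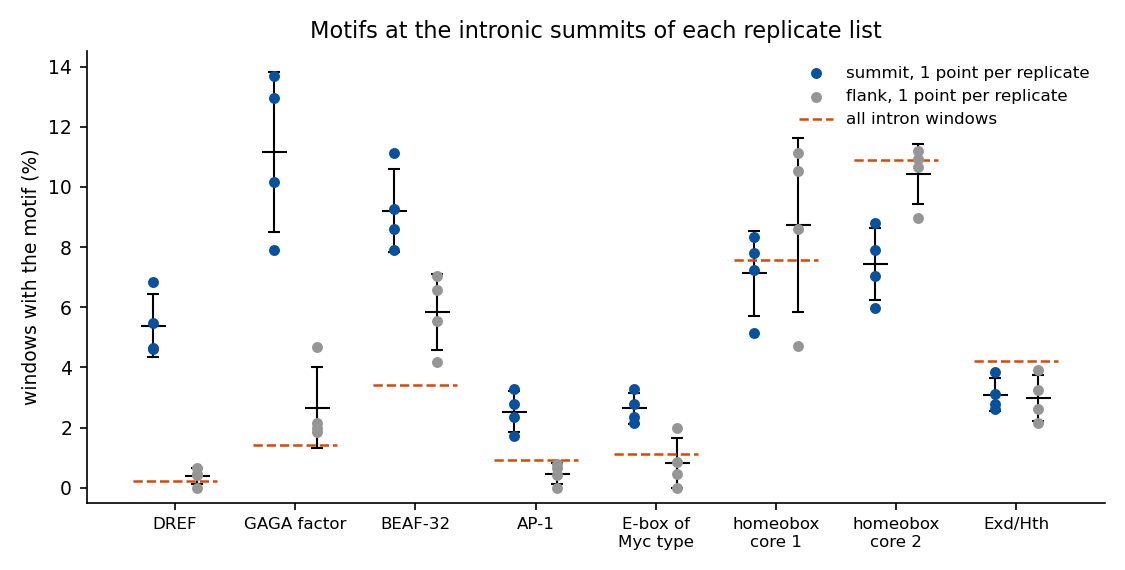
Share of windows (percent) with each of 8 words at the intronic summits (blue) and in the flanks (grey) of the replicates' own lists, 1 point per replicate, with the mean and SD in black and the share in all intron windows as a dashed line. Homeobox core 1 and 2 are TAATTA and TAATTG. DREF and GAGA factor are above their flanks in all 4 replicates, and both homeobox cores overlap or fall below theirs.

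Non-coding genes lay near few intronic summits. Within 500 bp there was a tRNA gene for 19 summits (6 of them in all 4 own lists), a long non-coding RNA gene for 19 and a snoRNA gene for 4. Genes near at least 2 summits seen in 2 or more own lists were tRNA:Asn-GTT-1-1 in EcR, the tRNA genes tRNA:Lys-CTT-1-12, tRNA:Lys-CTT-1-13 and tRNA:Cys-GCA-1-3 in the chitinase gene Cht7, snoRNA:Psi28S-2622 and sncRNA:CR43701 in the rhomboid gene stet, and lncRNA:CR45157 in CG17672. In each of these hosts the 2 summits were 199 to 206 bp apart, so each pair marks 1 place and not 2 separate ones. The Cht7 peak ranked at 48.8%, 73.7%, 77.6% and 82.8% in replicates 1 to 4. Without strand or read data the summits cannot be assigned to the tRNA gene or to the host. A transposable element held 10 summits (1.97%), none seen in all 4 own lists, and such elements cover 6.80% of intronic bases.

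The chromosome arms differed in density. Per megabase of intron there were 12.8 intronic summits on 2R, 10.4 on 3L, 8.34 on 4, 8.27 on 2L, 7.87 on X and 7.67 on 3R, and none on Y. In the own lists the means were 4.48 ± 1.18 on 2R, 4.28 ± 1.07 on 3L, 3.32 ± 1.07 on 2L, 2.80 ± 1.34 on X and 2.23 ± 0.686 on 3R (SD, n = 4). The orders of 2R and 3L, of 2L and X, and of X and 3R were within the spread between replicates. The value of 4 rests on 5 summits.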

How the data were processed

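Peak lists of 4 replicates (1 group) and of the series were deposited by the authors on dm6, per the labels. Per the sample descriptions, each own list derives from that sample's alignments and a further file, and series-level lists from the alignments of all 4 samples. Lists were ranked or thresholded by IDR (irreproducible discovery rate), per the file names. No source used here names the aligner or the caller. The signal is the peak height as the authors deposited it, with a normalization that is not stated, and was ranked only within a list. The deposited summit offset was added to the start of each peak.

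The conservative list has 5209 rows, of which 6 off the arms were left out, and 417 repeat an interval with another summit. Classes used Ensembl release 115 (BDGP6.54), without transposable elements. The host is the protein-coding gene with the shortest span. Coordinates are 1-based. Replicates were compared by exact two-sided sign-flip tests. Depth is unknown. Another 14 per-replicate signal columns of series-level lists carry no sample name and were not used.

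The members, 17 gene lists and 21 words were chosen with earlier results of these data known. Of 448 list entries 12 were matched by another symbol and 3 not at all. The result of 1 list is not reported here. Genes named are Dll, hosts of the 20 strongest intronic peaks in all 4 own lists, the 10 hosts with most summits and up to 4 hosts per list, plus genes of printed sequences, clusters of 3 and single extremes, named after their values were seen. Functions were tested on simulated data. Tools were Python 3.11.15, NumPy 2.4.6, SciPy 1.17.1 and matplotlib 3.10.9.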

Additional observations from a re-analysis of the deposited data

Results flagged for a closer look

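In 71 sets of 4 replicate values, 5 had a replicate that stood apart from the other 3 by more than Dixon's 95% limit, and chance alone marks about 1 in 20 such sets. The share of intronic summits within 1000 bp of a coding TSS was 39.4% in replicate 2, below the other 3 replicates. The zf30C peak ranked at 12.3% in replicate 4, lower in the list than elsewhere. The CG31688 peak ranked at 36.3% and the Pp2C1 peak at 58.9% in replicate 3, again lower in the list than in the others. The Grainyhead word AACCGGTT was at 0.781% of the 128 intronic summits of replicate 3 and at none in the other replicates. The flanks of replicate 3 held it in 1.56%, more than the summits.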

How the results depend on the processing

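The own-list support and the rank difference, intronic minus promoter, kept their direction under every alternative run; the support difference was between -40.1 and -8.30 percentage points, and between -34.7 and -33.3 without 1 replicate. The rank difference was between 25.5 and 33.0 points, and the number of words above the flank between 4 and 7. Neither p could fall below 0.13, or 0.25 with 3 replicates.

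The intronic share of 9.76% became 3.77% in the upper 50% of peaks by signal, 12.1% in the largest other thresholded list, 6.0% with a promoter of 1000 bp to each side and 5.54% for peaks in at least 2 own lists. The share seen in all 4 own lists (21.1%, Wilson 95% interval 17.7 to 24.8, counting error only) was 65.3% in the upper 50%, 14.9% in the largest other list, 15.1% with 1 summit per merged region, 15.4% with the wider promoter, 8.86% with a reciprocal overlap of at least 50% and 9.84% with summits within 100 bp. Without 1 replicate it was between 21.5% and 24.4%. Chosen after seeing the data, it was 15.1% for peaks that overlap no stronger peak and 15% without intronic peaks that overlap a promoter peak.

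The share in first introns (64.6%) was 60.2% with 1 summit per merged region, 51.3% with the wider promoter, 71.1% for peaks in at least 2 own lists, 75.6% by the lowest intron number over transcripts, 58.3% by the transcript of the largest span, and, chosen after seeing the data, 60.3% without peaks under a stronger one and 59.3% without those that overlap a promoter peak. The share with another summit within 1000 bp (29.7%) was 4.08% in the upper 50%, 26% in the largest other list, 1.10% with 1 summit per merged region and also for peaks that overlap no stronger one (chosen after seeing the data), 37.8% with the wider promoter and 39.0% within 5000 bp. Hosts (363) numbered 94 in the upper 50%, 205 with the wider promoter and 162 for peaks in at least 2 own lists, and 304 to 525 under the other 5 alternatives. Alternatives that keep fewer peaks hold fewer hosts by construction. The cause of the other shifts was not tested. No paired analysis was possible because the series has 1 group, so no samples pair across groups; summit classes, and summits and flanks, were compared within each replicate.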
